A study of Mus musculus with 12 samples.

Results

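The extracellular matrix proteases and their inhibitors were examined in the tibialis anterior, a hindlimb muscle. The genes were those whose symbol in the count table is Mmp, Adam, Adamts or Timp followed by a number, with or without a or b after it for Mmp and Adam. This gave 79 of 24421 entries: 23 Mmp, 33 Adam, 19 Adamts and 4 Timp genes. The study compared 6 samples from WT mice, of strain C57Bl/6, with 6 samples from mdx/mTR mice, all of them male and 4 months old. The mutation mdx inactivates Dmd, which encodes dystrophin, a protein that links the fibre's cytoskeleton to the matrix, and mTR stands for the mouse telomerase RNA gene. The labels name neither the generation of telomerase loss nor the mdx allele, and with no group carrying only 1 of these mutations their contributions cannot be told apart. The samples are numbered 1 to 6 in each group without a statement that each is a separate animal, so p-values measure the spread between these samples, which may be technical.

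Matrix metalloproteases (MMPs) are zinc enzymes that cut collagens, gelatin, elastin and other matrix proteins, and most are made as inactive precursors. The ADAMs are membrane proteins, several of which cut the outer part off other membrane proteins, while some have no protease activity. The ADAMTS enzymes are secreted and bind matrix through thrombospondin repeats. Some of them trim procollagens and others cut proteoglycans such as versican. The tissue inhibitors of metalloproteases (TIMPs) block these enzymes in the matrix. In injured muscle these genes are known from macrophages, fibroblasts, muscle stem cells and the fibres themselves, and matrix turnover accompanies both regeneration and fibrosis.

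Of the 79 genes, 45 had enough counts to be tested. In mdx/mTR 24 of these were higher, 7 were lower and 14 did not pass the test (edgeR quasi-likelihood test, Benjamini-Hochberg adjusted p below 0.05 over 13937 genes). The 31 called genes stand against a background in which 48.3% of all tested genes were called, 25.0% higher and 23.4% lower. A change of at least 2-fold was called for 16 of the 45 genes, where the share over all tested genes was 9.18%. For 18 of the 45, all samples of 1 group lay outside the range of the other, as they did for 25.2% of all tested genes. The median change of the 45 genes, mutant over WT, was 0.26 on the log2 scale, against 0.01 over all tested genes. The Mmp genes divided into 7 higher, 1 lower and 4 not called (median log2 fold change 0.64), and the Adamts genes into 10, 3 and 3 (median 0.66). The Adam genes divided into 5 higher, 1 lower and 7 not called (median 0.19), while the 4 Timp genes divided into 2 higher and 2 lower (median 0.02). In a bulk muscle sample, fewer cells of a type and less RNA per cell cannot be told apart. Scaling by library totals alone moved the median of all genes up by 0.16 on the log2 scale and gave 25 members higher and 3 lower, where 40.2% of all tested genes were then higher and 11.2% lower.

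**Figure D1:**
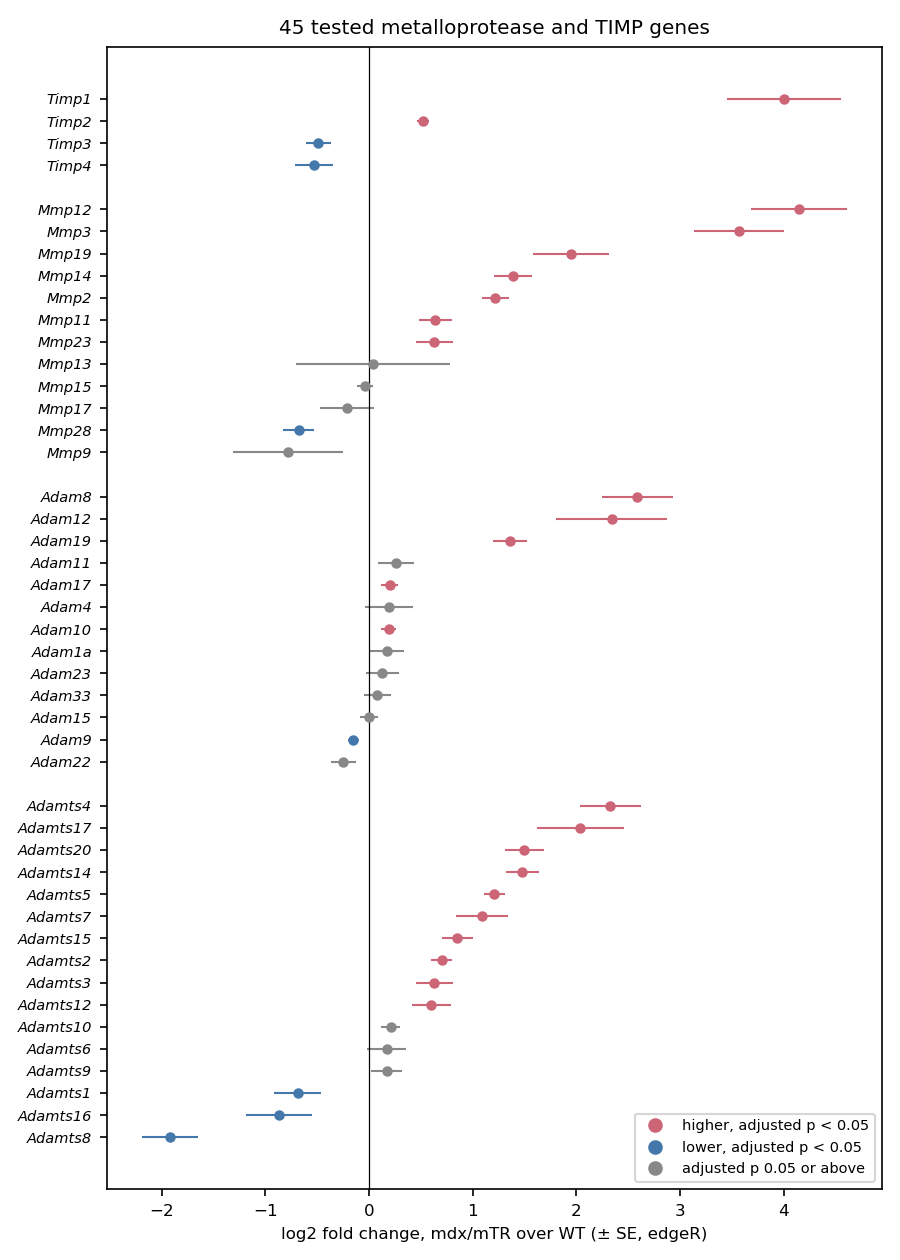
Change in mdx/mTR relative to WT (log2 fold change) for the 45 tested protease and inhibitor genes, with bars of ± 1 SE, grouped by family and coloured by call (higher, lower or not called). The rises reach 4.15 for Mmp12 and 4.00 for Timp1, and the lowest value is -1.92 for Adamts8.

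Library totals were 35136327 to 60330410 counts. Levels are given as CPM, counts divided by the library total and brought to 1 scale with factors from the trimmed mean of M-values. The mean level of Dmd was 237 CPM (SD 6.90) in the 6 WT samples and 46.8 CPM (SD 7.20) in the 6 mutant samples, which checks the labels, while the telomerase RNA gene had 2 counts in WT and 0 in mdx/mTR and checks nothing. The 6 mature fibre genes were high in all samples, which checks the tissue as muscle but not which muscle it was. They summed to 138106 to 154891 CPM in WT and 100115 to 134211 CPM in mdx/mTR, without overlap. Of them, Myh4 (-0.62, edgeR adjusted p 0.00267) and Mybpc2 (-0.31, edgeR adjusted p 0.0178) were lower, and 4 were not called. Markers of several other cell types also moved with the groups, while some lists were mixed or had no call. The 6 fibroblast genes were all higher (sums of 1074 to 2079 CPM in WT and 2755 to 5692 in mdx/mTR), as were 5 of 6 macrophage genes (48.8 to 81.6 and 102 to 278) and 5 of 6 satellite cell and myoblast genes (27.9 to 38.8 and 80.5 to 319). The genes not called were Cd163 for macrophages (0.09, edgeR adjusted p 0.61) and Pax7 for satellite cells (0.13, edgeR adjusted p 0.436). Myh3 had the largest mutant mean of the satellite cell and myoblast list, 74.4 CPM against 4.45 in WT, and reached 215 CPM. That sum therefore does not measure satellite cells alone. The 5 mast cell genes were also all higher, while 4 of 5 Schwann cell and 3 of 5 endothelial genes were lower. The endothelial sums overlapped (429.1 to 579.1 CPM in WT and 345.5 to 465.6 CPM in mdx/mTR). Of 5 smooth muscle and pericyte genes 1 was higher and 2 were lower, again with overlapping sums. Among 3 tested adipocyte genes and 1 tested T and B cell gene there were 0 calls. The sample mdx/mTR 5 had the highest sum for the fibroblast list, the macrophage list and the satellite cell and myoblast list. The part of these shifts in the protease results was not tested.

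The 4 inhibitors changed in opposite directions. Timp1, an inhibitor induced in injured and inflamed tissue, rose from a low level, and Timp2, an inhibitor that also takes part in activating proMMP-2, rose moderately. Timp3, which binds to the matrix and also inhibits ADAM17, fell, as did Timp4, an inhibitor prominent in heart and muscle. Timp1 (chrX:20870166-20874737) ran from 0.333 to 1.20 CPM in WT with a median of 0.640, and from 3.35 to 34.2 CPM in mdx/mTR with a median of 8.12. All mdx/mTR samples lay above all WT samples, and mdx/mTR 5 was far above the other 5. The log2 fold change was 4.00 ± 0.55 (SE; edgeR adjusted p 6.9e-05), a 16.0-fold rise. Without mdx/mTR 5 the mutant mean fell from 11.6 ± 11.3 to 7.05 ± 2.29 CPM, and the log2 fold change was 3.28 (edgeR adjusted p 4.1e-06).

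Timp2 had 121 to 140 CPM in WT (median 130) and 166 to 203 CPM in mdx/mTR (median 191). Both groups were narrow and did not overlap, and the log2 fold change was 0.52 ± 0.06 (edgeR adjusted p 9.0e-06). Timp3 ran from 150 to 206 CPM in WT (median 171) and from 97.2 to 159 CPM in mdx/mTR (median 124). Its ranges overlapped at their ends, with a log2 fold change of -0.49 ± 0.12 (edgeR adjusted p 0.00504). Exons of other genes cover 21.3% of the exon bases of Timp3, and the largest overlap is with Syn3 on the opposite strand. The handling of strand in counting is not given in the sources used here. Syn3 itself averaged 2.43 CPM in WT samples and 1.70 CPM in mutant samples. Timp4 went from 50.2 to 86.7 CPM in WT (median 58.5) to 24.5 to 54.4 CPM in mdx/mTR (median 44.1), again with overlap at the ends. Its log2 fold change was -0.53 ± 0.18 (edgeR adjusted p 0.0232). This call was lost without WT 3 (-0.42, adjusted p 0.0601) and with library totals alone (-0.39, adjusted p 0.0572).

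Levels of different genes can be set beside each other after division by transcript length. On that scale (CPM per kilobase), Timp2 and Timp3 made up most of the inhibitor message in both groups. The share of Timp2 was above that of Timp3 in 3 of 6 WT samples and in 6 of 6 mutant samples. Timp3 held 43.8% ± 2.41 of the summed TIMP level in WT and 27.5% ± 6.42 in mutant samples (SD over 6), without overlap. Timp2 held 41.8% ± 4.08 and 51.8% ± 4.45, and its lowest mutant share (45.75%) lay just under its highest WT share (45.8%). Timp4 went from 13.4% ± 1.96 to 8.31% ± 2.54. Timp1 went from 0.970% ± 0.456 to 12.5% ± 10.03, with 4.35% to 32.4% in the mutant samples and a mean of 8.50% without mdx/mTR 5. The length used is that of the longest annotated transcript, and without length scaling the Timp1 share was 0.197% in WT and 3.17% in mdx/mTR. The order of Timp2 and Timp3 in WT also depends on the scaling. Without it, Timp3 (45.3% to 50.5%) was above Timp2 (30.4% to 39.2%) in all WT samples. In mdx/mTR, Timp2 (45.35% to 56.7%) stayed above Timp3 (28.2% to 41.1%). Per kilobase, the summed MMP level was 0.513 ± 0.108 of the summed TIMP level in WT (0.402 to 0.680) and 0.895 ± 0.130 in mdx/mTR (0.798 to 1.11), again without overlap. These are ratios of messages, not of proteins, and no test was made on them.

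**Figure D2:**
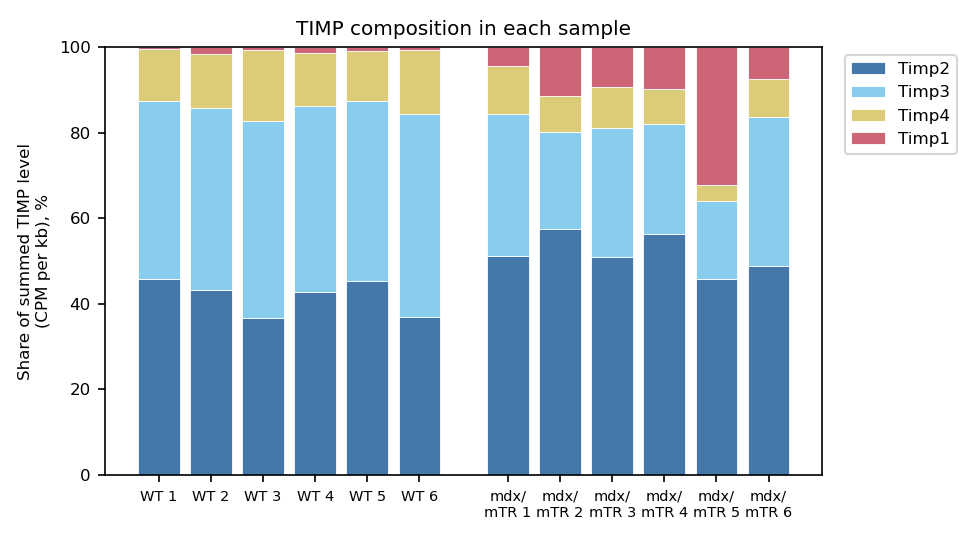
Share of each TIMP gene in the summed TIMP level (CPM per kilobase, in percent) in each of the 12 samples. Timp1 is a thin band of 0.494% to 1.69% in WT and takes 32.4% in mdx/mTR 5.

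Among the gelatinases, which cut denatured collagen and basement membrane collagen, Mmp2 rose and Mmp9 did not pass the test. Mmp2 ran from 50.3 to 84.6 CPM in WT (median 60.5) and from 130 to 187 CPM in mdx/mTR (median 142). Every mutant sample lay above every WT sample. The log2 fold change was 1.22 ± 0.13 (edgeR adjusted p 9.2e-06). Mmp2 made up 49.4% of the summed MMP level per kilobase in WT and 57.1% in mdx/mTR. Mmp14, the membrane-type enzyme that activates proMMP-2 on the cell surface, rose to a similar extent, from 12.5 to 19.7 CPM (median 14.2) to 29.8 to 60.6 CPM (median 33.5). The groups were separate, and mdx/mTR 5 was the highest (log2 fold change 1.39 ± 0.18, edgeR adjusted p 3.8e-05). With Timp2, these are the 3 genes of the proMMP-2 activation complex as it is known from cultured cells, and all 3 were higher.

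The other tested membrane-type enzymes did not pass the test. Mmp15, a close relative of Mmp14, had 37.0 to 49.9 CPM in WT and 38.3 to 50.0 CPM in mdx/mTR, with medians of 42.4 and 39.7. The ranges almost coincided, and the 95% confidence interval of its log2 fold change (-0.04) ran from -0.19 to 0.12. Per kilobase of transcript, the mean level of Mmp15 was above that of Mmp14 in WT (8.33 against 4.71 CPM per kilobase) and below it in mdx/mTR (8.12 against 12.3). Mmp17, which is held to the membrane by a lipid anchor, had a log2 fold change of -0.21 (edgeR adjusted p 0.531), with 0.50 to 1.34 CPM in WT and 0.552 to 1.19 CPM in mdx/mTR.

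Mmp12 and Mmp3 had the largest rises of the protease genes. Mmp12, the macrophage metalloelastase, ran from 0.0556 to 0.465 CPM in WT (median 0.258) and from 1.43 to 8.18 CPM in mdx/mTR (median 3.66). The lowest WT value was 2 counts in WT 1, below the level of 3 counts in that library (0.0833 CPM, and 0.0460 to 0.0837 CPM over the libraries). WT 5 had 4 counts, so the size of the rise rests on a WT level near this limit. No values overlapped, mdx/mTR 2 was the highest, and the log2 fold change was 4.15 ± 0.46 (edgeR adjusted p 1.3e-05). Mmp3, stromelysin 1, which cuts proteoglycans, laminin and fibronectin and activates other MMPs, ran from 0.139 to 1.37 CPM (median 0.922) in WT and from 4.81 to 20.7 CPM (median 7.41) in mdx/mTR. Its groups were separate too, with mdx/mTR 5 the highest (3.57 ± 0.43, edgeR adjusted p 2.6e-05). The log2 fold change of Mmp3 was 3.20 without that sample. Of the Mmp3 transcript, 8.39% of 50-base stretches also occur in another gene, most often in Mmp10, which had 4 counts over all 12 libraries.

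Mmp19, a widely expressed secreted MMP, had 1.61 to 2.71 CPM in WT (median 1.97) and 4.20 to 20.1 CPM in mdx/mTR (median 5.92). Again no values overlapped, and 1 sample, mdx/mTR 5, carried the top of the range. The log2 fold change was 1.95 ± 0.37 (edgeR adjusted p 7.2e-04), and it was 1.44 without mdx/mTR 5. The exons of Mmp19 overlap those of other genes over 28.3% of their length, most of all those of Tmem198b on the opposite strand. Tmem198b averaged 4.12 CPM in WT samples and 4.73 CPM in mutant samples. Mmp11, stromelysin 3, which is activated by furin inside the cell, rose less (0.64 ± 0.16, edgeR adjusted p 0.00389), as did Mmp23, a membrane-anchored form that lacks the usual cysteine switch (0.63 ± 0.18, edgeR adjusted p 0.0109). In both, the ranges of the groups overlapped. Mmp28, epilysin, was the only MMP called lower by the edgeR test over all 12 samples with group as its single term. It ran from 2.93 to 4.80 CPM in WT (median 3.59) and from 1.92 to 2.95 CPM in mdx/mTR (median 2.22), so that the ranges barely overlapped (-0.68 ± 0.15, edgeR adjusted p 0.00199). Exons of other genes cover 12.03% of the exon bases of Mmp28, and the largest overlap is with 1700020L24Rik on the opposite strand. That gene averaged 1.73 CPM in WT samples and 1.05 CPM in mutant samples (log2 fold change -0.72). With the strand handling unknown, reads of the overlap cannot be told apart.

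**Figure D3:**
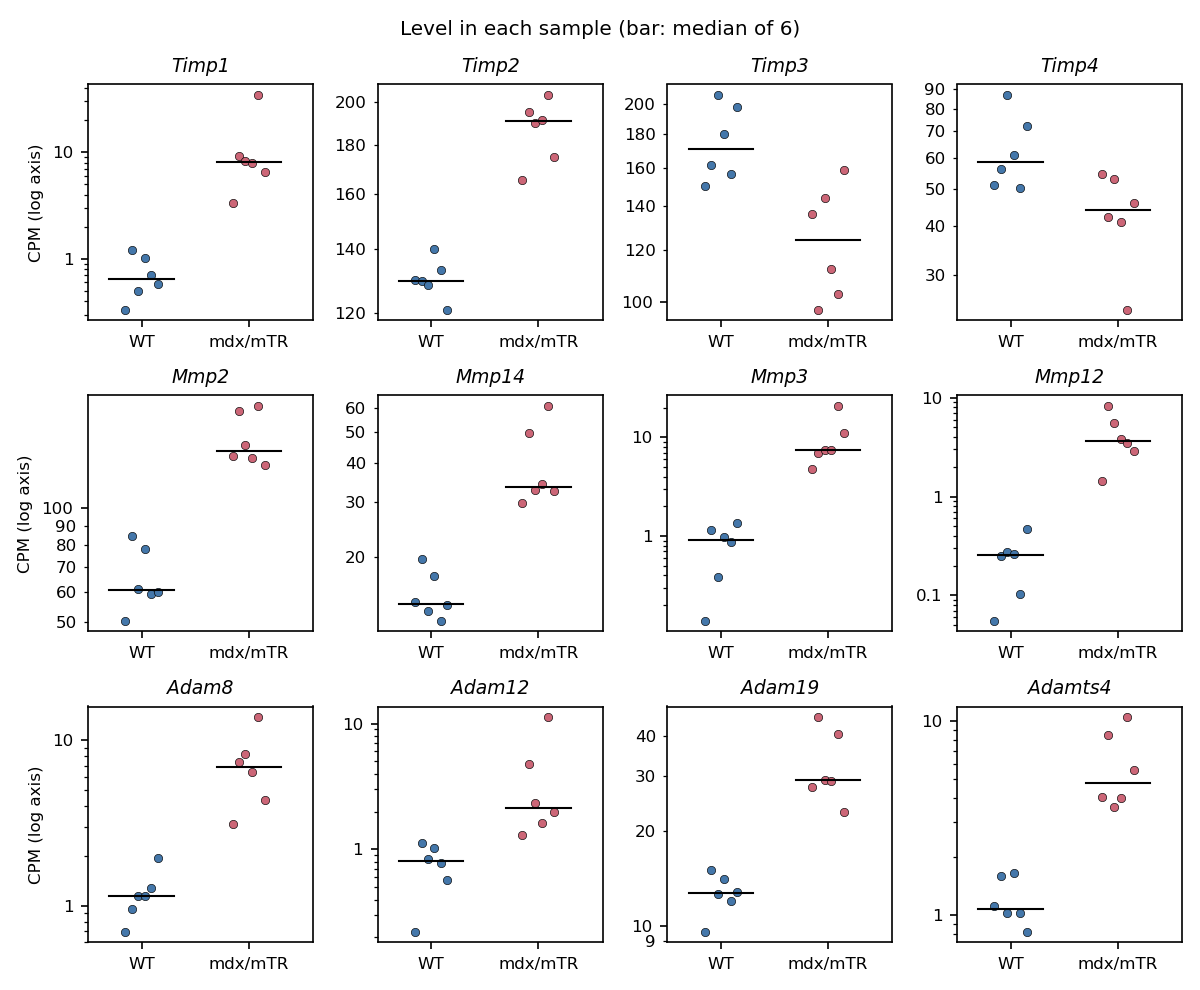
Level of the 4 inhibitor genes and 8 protease genes in each sample (CPM, log axis). Points are samples and bars are the medians of 6. All of these genes but Timp3 and Timp4 separate the groups, and mdx/mTR 5 carries the 34.2 CPM of Timp1.

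Mmp12, Mmp3 and Mmp13 lie in a run of 10 Mmp genes on chromosome 9, chr9:7272514-7699585 in GRCm38, which spans 427.1 kb. In order the genes are Mmp13, Mmp12, Mmp1b, Mmp3, Mmp1a, Mmp10, Mmp8, Mmp27, Mmp20 and Mmp7. Of these 10, 3 passed the filter on low counts, and within them Mmp12 and Mmp3 rose while Mmp13 did not pass the test. The RefSeq promoters (GRCm38.p6) of these 3 are printed because neighbours in 1 run gave different results. Each is the 150 bases before an annotated start on the plus strand, and capitals mark matches to TGANTCA, the AP-1 motif, or to TATAAA, the TATA box, searched on both strands. RefSeq gives Mmp12 a pair of starts.
Mmp13, chr9:7272364-7272513: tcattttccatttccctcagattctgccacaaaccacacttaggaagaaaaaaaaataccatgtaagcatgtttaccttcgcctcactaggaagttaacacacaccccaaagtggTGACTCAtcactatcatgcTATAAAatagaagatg
Mmp12 first start, chr9:7344247-7344396: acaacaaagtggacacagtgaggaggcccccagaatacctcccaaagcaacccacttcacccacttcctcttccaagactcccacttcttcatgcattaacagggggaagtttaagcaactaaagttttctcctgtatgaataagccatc
Mmp12 second start, chr9:7347224-7347373: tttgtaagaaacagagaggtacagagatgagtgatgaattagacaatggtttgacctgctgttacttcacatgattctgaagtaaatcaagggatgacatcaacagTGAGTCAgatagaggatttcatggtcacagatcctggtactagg
Mmp3, chr9:7445672-7445821: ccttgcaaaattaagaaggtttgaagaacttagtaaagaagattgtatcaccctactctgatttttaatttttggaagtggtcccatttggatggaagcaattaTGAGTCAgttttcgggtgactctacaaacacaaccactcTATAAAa

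Counted from the start site, the first base of the AP-1 match is at -35 in Mmp13, at -46 in Mmp3 and at -44 before the second start of Mmp12. The TATA match begins at -16 in Mmp13 and at -7 in Mmp3. No match to either motif lies in the window before the first start of Mmp12. Within 250 bases before a start, 8 of the 10 genes of the run (80%) have the AP-1 letters, against 7.82% of 27025 genes in the RefSeq promoter table, and 7 of 10 (70%) have the TATA letters, against 14.3%. Of 28 tested members in that table, 4 (14.3%) have the AP-1 letters, where the share among tested genes was 5.65%. These are Adam19 and, from the run, Mmp12, Mmp3 and Mmp13, so this share largely repeats the count for the run. The TATA letters are in 3 of the 28 (10.7%), against 8.27% of tested genes. Mmp3, which rose, and Mmp13, which was not called, thus both carry the pair of motifs close to the start. A match describes the letters only.

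Mmp13, the main interstitial collagenase of rodents, had no common direction. In WT its levels were 1.39, 11.2, 1.36, 16.8, 1.25 and 1.56 CPM in samples 1 to 6, and in mdx/mTR they were 0.802, 5.71, 1.70, 4.91, 8.76 and 12.3 CPM. WT 2 and WT 4 were high among WT, and mdx/mTR 1 and mdx/mTR 3 were low among the mutants. The log2 fold change was 0.04 ± 0.74 (edgeR adjusted p 0.971), with a 95% confidence interval from -1.41 to 1.49. The summed level of 4 tendon markers was 92.3 CPM in WT 2 and 89.4 CPM in WT 4, against 58.3 to 82.8 CPM in the other WT samples, and in mdx/mTR it ran from 76.4 to 127 CPM. In mdx/mTR 3 this sum was the highest of all, at 127 CPM, while Mmp13 was at 1.70 CPM. The part of tendon in the Mmp13 level was not tested.

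Mmp9, a gelatinase of neutrophils and macrophages, turned on 1 sample. WT ran from 2.69 to 4.72 CPM (median 2.97), and the mutant samples 1 to 6 had 0.540, 0.768, 1.09, 1.17, 7.09 and 1.06 CPM. All mutant samples but mdx/mTR 5 lay below all WT samples, and mdx/mTR 5 lay above all of them. Over all 12 samples the log2 fold change was -0.78 ± 0.53 (edgeR adjusted p 0.238) and Mmp9 was not called. Without mdx/mTR 5 it was -1.86 (edgeR adjusted p 2.1e-05), with a mutant mean of 0.926 ± 0.264 CPM (SD, n = 5). The call was also made by limma-voom on all samples (-1.43, adjusted p 0.0125) and with a term for the replicate number (-1.34, edgeR adjusted p 0.0299). The summed level of 7 neutrophil markers was 0.306 to 1.55 CPM in WT, 0.645 to 1.59 CPM in 5 mutant samples and 6.77 CPM in mdx/mTR 5. Of these markers, 2 passed the filter: S100a8 was higher and S100a9 was not called (0.99, edgeR adjusted p 0.159). The highest mutant values were 2.365 CPM for S100a8, 2.897 for S100a9 and 1.427 for Cxcr2. They were at most 0.102 CPM for the granule genes Ngp, Ltf, Camp and Mpo, each at 0 in at least 1 sample of both groups. The means of Ngp, Ltf and Camp were lower in mdx/mTR than in WT, and that of Mpo was slightly higher. The 6.77 CPM thus came mainly from S100a8, S100a9 and Cxcr2. The part of neutrophils in the Mmp9 level was not tested.

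**Figure D4:**
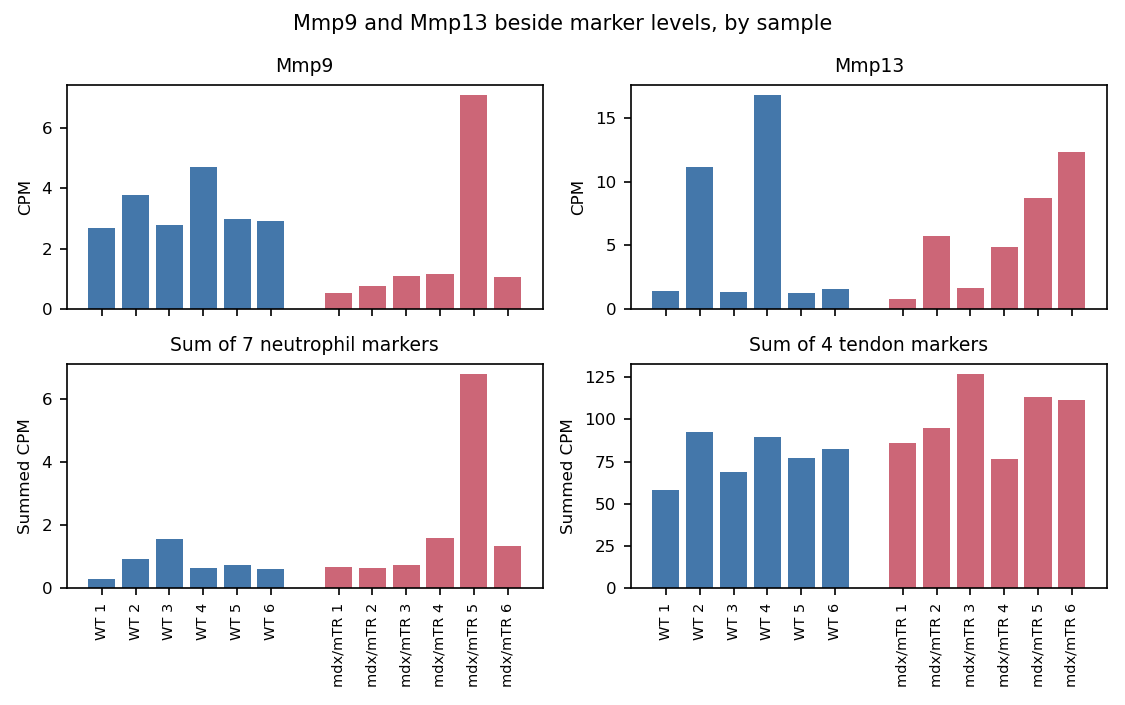
Level of Mmp9 above the summed level of 7 neutrophil markers, and of Mmp13 above that of 4 tendon markers, as bars for each sample (CPM, from 0). The sample mdx/mTR 5 stands apart with 7.09 CPM of Mmp9 and a neutrophil sum of 6.77 CPM, while Mmp13 is spread widely in both groups. That neutrophil sum comes mainly from S100a8, S100a9 and Cxcr2, and the tendon sums mainly from Fmod.

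Among the ADAMs, 3 rose more than 2-fold. Adam8, a protease of macrophages and other leukocytes, ran from 0.695 to 1.94 CPM in WT (median 1.14) and from 3.14 to 13.8 CPM in mdx/mTR (median 6.90). Its ranges did not overlap, and the log2 fold change was 2.59 ± 0.34 (edgeR adjusted p 4.3e-05). Adam12, a protease of regenerating muscle and of mesenchymal progenitors, ran from 0.222 to 1.12 CPM (median 0.808) and from 1.31 to 11.2 CPM (median 2.15). Its groups were separate by a small gap and mdx/mTR 5 stood far above the rest (2.34 ± 0.54, edgeR adjusted p 0.00303). Without that sample the log2 fold change was 1.65 (edgeR adjusted p 0.00289). Adam19, a close relative of Adam12, ran from 9.61 to 15.1 CPM (median 12.7) and from 23.0 to 46.0 CPM (median 29.1). Its groups were separate, with mdx/mTR 2 the highest (1.36 ± 0.16, edgeR adjusted p 2.0e-05).

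The broadly expressed sheddases moved little. Adam10, the enzyme that cuts Notch and cadherins, had 28.7 to 35.3 CPM in WT (median 31.1) and 32.0 to 42.1 CPM in mdx/mTR (median 34.8), a log2 fold change of 0.19 ± 0.07 (edgeR adjusted p 0.0499). Adam17, which releases tumour necrosis factor and ligands of the epidermal growth factor receptor, had 30.3 to 41.0 CPM (median 33.1) and 34.5 to 43.7 CPM (median 38.6), a log2 fold change of 0.20 ± 0.08 (edgeR adjusted p 0.0461). Adam9, another sheddase, had 111 to 131 CPM (median 126) and 101 to 121 CPM (median 112) and a log2 fold change of -0.15 ± 0.05 (edgeR adjusted p 0.0320). All 3 sets of ranges overlapped. These calls were close to the threshold: of 22 alternative settings, 13 ended that of Adam10, 12 that of Adam17 and 11 that of Adam9, while with library totals alone the value of Adam9 was 0.0062. Leaving out 1 sample ended the call of Adam10 for WT 1, 3, 4, 5 and 6 and for mdx/mTR 2, 3 and 5 (0.13 to 0.19), and that of Adam17 for the same samples and mdx/mTR 4 (0.16 to 0.20). For Adam9 this held for WT 1, 3, 5 and 6 and mdx/mTR 1, 2 and 3 (-0.15 to -0.12). Adam15, a disintegrin of vessels and other tissues, had a log2 fold change of 0.00, with a confidence interval from -0.18 to 0.19 and with 35.9 to 45.6 CPM in WT (median 39.3) and 35.7 to 52.3 CPM in mdx/mTR (median 37.2). Adam33, related to Adam12 and Adam19, was at 0.08 and did not pass the test.

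The nerve ADAMs, which lack protease activity and bind proteins of the nerve membrane, gave 0 calls of 3. Adam22, a receptor of the secreted LGI proteins, had the smallest p of them (-0.25 ± 0.12, edgeR adjusted p 0.108), and the call was made without mdx/mTR 5 (-0.32, adjusted p 0.0453). Adam11 was at 0.26 and Adam23 at 0.13. The 95% confidence intervals ran from -0.49 to -0.01 for Adam22, from -0.08 to 0.60 for Adam11 and from -0.19 to 0.44 for Adam23. These intervals are approximate: that of Adam22 leaves out 0, although its p before adjustment was 0.0617 in the edgeR test. Of 21 other ADAMs, mainly genes of the testis, 10 had no count and only Adam1a and Adam4 passed the filter. Neither was called, and both levels are uncertain, because all of the Adam1a 50-base stretches (100%) and 17.4% of those of Adam4 occur in other transcripts.

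The ADAMTS enzymes that trim the amino-terminal propeptide of procollagens, Adamts2, Adamts3 and Adamts14, were all higher. Adamts14 ran from 1.51 to 2.20 CPM in WT (median 1.82) and from 3.96 to 7.01 CPM in mdx/mTR (median 4.58). Its groups were separate (1.48 ± 0.16, edgeR adjusted p 1.0e-05). Adamts2, the highest of the 3 per kilobase in both groups, ran from 23.4 to 32.3 CPM (median 26.9) and from 37.2 to 53.1 CPM (median 43.1), also separate (0.70 ± 0.10, edgeR adjusted p 9.6e-05). Adamts3, which also processes the lymphatic growth factor VEGF-C, had 1.06 to 1.78 and 1.64 to 2.73 CPM, with a small overlap (0.63 ± 0.18, edgeR adjusted p 0.00994).

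The ADAMTS proteoglycanases, which cut versican and aggrecan, divided: 4 of 7 rose, 2 fell and Adamts9 did not pass the test. Adamts4, aggrecanase 1, ran from 0.821 to 1.65 CPM in WT (median 1.07) and from 3.61 to 10.5 CPM in mdx/mTR (median 4.81). The groups were separate (2.33 ± 0.29, edgeR adjusted p 3.1e-05). Adamts5, aggrecanase 2, which is needed to clear versican around fusing myoblasts, ran from 26.4 to 32.6 CPM (median 31.4) and from 54.9 to 93.1 CPM (median 69.2). Its groups were separate with mdx/mTR 2 the highest, and it had the smallest adjusted p of all members (1.21 ± 0.10, edgeR adjusted p 1.7e-06). Adamts20, which acts on versican in the developing skin, went from 3.17 to 6.22 CPM (median 5.14) to 10.03 to 19.1 CPM (median 13.2), separate as well (1.50 ± 0.19, edgeR adjusted p 2.8e-05). Adamts15, another versicanase of developing muscle, went from 3.34 to 6.29 CPM (median 5.22) to 6.61 to 11.1 CPM (median 9.13), with a narrow gap between the groups (0.85 ± 0.15, edgeR adjusted p 4.3e-04).

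Adamts8 and Adamts1, both known also as inhibitors of vessel growth, were the proteoglycanases that fell. Adamts8 ran from 7.97 to 23.5 CPM in WT (median 13.4) and from 2.49 to 5.93 CPM in mdx/mTR (median 4.12). All mutant samples lay below all WT samples, and this was the largest fall of the 45 genes (-1.92 ± 0.27, edgeR adjusted p 7.4e-05). Exons of other genes cover 10.6% of the exon bases of Adamts8, most of all those of Gm29724 on the opposite strand. With the strand handling unknown, reads of this overlap cannot be told apart. Adamts1 varied widely in WT, from 32.2 to 114 CPM (median 68.8), and ran from 35.8 to 54.0 CPM in mdx/mTR (median 45.2), wholly inside the WT range. Its log2 fold change was -0.69 ± 0.23 (edgeR adjusted p 0.0224). The call was lost without WT 5 (-0.51, adjusted p 0.0593) and with library totals alone (-0.53, adjusted p 0.0716). Adamts9, a proteoglycanase close to Adamts20, had 8.89 to 18.9 and 11.2 to 16.6 CPM (0.17 ± 0.15, edgeR adjusted p 0.368).

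Both falling proteoglycanases have a rising one as their nearest neighbour among these genes. On chromosome 16, Adamts1 (chr16:85793827-85803113) and Adamts5 (chr16:85858157-85901125) lie 55.0 kb apart, and the first fell while the second rose. On chromosome 9, Adamts15 (chr9:30899155-30922452) and Adamts8 (chr9:30942562-30963838) lie 20.1 kb apart, and the first rose while the second fell. In the pair on chromosome 9 the samples of the groups were separate for both genes, while on chromosome 16 they were separate for Adamts5 and overlapped for Adamts1.

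**Figure D5:**
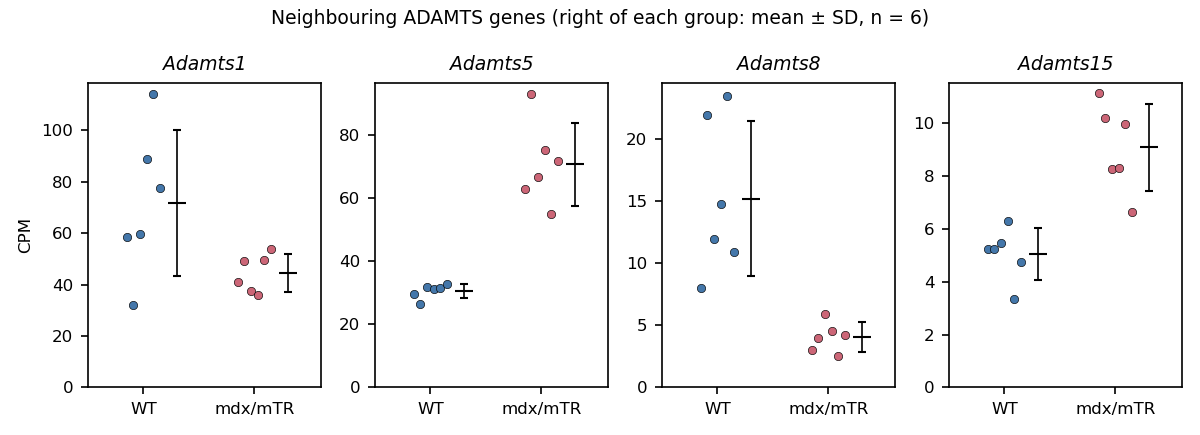
Levels (CPM, axes from 0) of the neighbouring pairs Adamts1 and Adamts5, and Adamts8 and Adamts15, with a point for each sample and the mean ± SD (n = 6) beside each group. Adamts5 and Adamts15 are higher in mdx/mTR, and Adamts8 falls to 2.49 to 5.93 CPM.

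Of the other ADAMTS genes, Adamts17 rose from 0.235 to 0.305 CPM (median 0.279) to 0.475 to 2.37 CPM (median 0.809). The groups were separate, with mdx/mTR 5 the highest (2.04 ± 0.42, edgeR adjusted p 0.00145). Adamts7, which cuts cartilage oligomeric matrix protein, as does Adamts12, rose by a log2 fold change of 1.09 ± 0.25 (edgeR adjusted p 0.00258), and Adamts12 by 0.60 ± 0.19 (edgeR adjusted p 0.0202). Both had overlapping ranges, and the call of Adamts12 was lost without mdx/mTR 2 (0.48, adjusted p 0.0505). Adamts16, a gene of low level here, went from 0.418 to 1.14 CPM (median 0.758) to 0.229 to 0.848 CPM (median 0.365), with broad overlap (-0.87 ± 0.32, edgeR adjusted p 0.0349). That call was lost in 11 settings, among them leaving out WT 1, 2 or 4 or mdx/mTR 1, 2, 4, 5 or 6 (-0.88 to -0.73). Adamts6 (0.17) and Adamts10 (0.21), a pair linked to fibrillin, were not called, and Adamts10 passed the test without mdx/mTR 4 (0.25, adjusted p 0.0396), without mdx/mTR 6 (0.26, adjusted p 0.0197) and without WT 2 (0.24, adjusted p 0.0494).

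The 34 members that were not tested were at very low levels. Of these, 13 had no count in any library, 10 had 1 to 10 counts in all and 11 had more, up to 143 for Mmp16. Their highest level in any library was 0.788 CPM, and the lowest mean of a tested member was 0.301 CPM. Mmp8, the neutrophil collagenase, had 0 to 8 counts in a WT library (21 in all) and 0 to 37 in a mutant library (75 in all). With no filter on low counts its log2 fold change was 1.33 (edgeR adjusted p 0.212), while 2 further genes passed the test, Adamts19 (2.12, edgeR adjusted p 0.0380) and Adamts18 (-1.18, edgeR adjusted p 0.0417). Both rest on few counts, 32 for Adamts19 and 97 for Adamts18 over all libraries.

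Genes that act around these proteases were counted from 5 lists. Over all tested genes, 25.0% were higher and 23.4% lower, with a median log2 fold change of 0.01. The lists are short, and no test was made on a list as a whole. Of genes for activation, docking and clearance of metalloproteases, 16 of 18 were tested, 11 were higher and 1 was lower (median log2 fold change 0.57). Cd44, a hyaluronan receptor that docks MMPs at the cell surface, had the largest rise, from 8.14 ± 2.06 to 24.5 ± 12.2 CPM (1.59, edgeR adjusted p 3.2e-04), and the fall was that of Serpine2, an inhibitor of thrombin and urokinase (-0.34, edgeR adjusted p 0.00171). Of the partners that carry or guide ADAM10 and ADAM17, 8 of 9 were tested, 5 were higher and 0 lower (median 0.32). The largest rise was that of Tspan5, a tetraspanin that regulates ADAM10, from 4.17 ± 0.665 to 7.29 ± 1.01 CPM (0.80, edgeR adjusted p 1.2e-04). Of proteoglycan substrates and cofactors of ADAMTS enzymes, 4 of 9 were tested and 3 were higher (median 0.96), led by Vcan, the gene of versican (1.58, edgeR adjusted p 0.00161), from 6.49 ± 1.10 to 19.5 ± 13.9 CPM. The list of astacin proteases and their enhancers, which act at the other end of procollagens, had 4 of 7 tested and 2 higher (median 0.48). These were the protease Bmp1 (0.60, edgeR adjusted p 5.6e-05) and Pcolce, an enhancer of its cleavage that is no protease itself (0.80, edgeR adjusted p 1.3e-04), while the protease Tll1 and the enhancer Pcolce2 were not called. The ADAMTS-like proteins, which lack a protease domain, had 1 of 6 higher (median 0.01), Adamtsl1 (0.35, edgeR adjusted p 0.0355), a call lost in 9 of the alternative settings, among them leaving out WT 1, WT 2, WT 5, mdx/mTR 3, mdx/mTR 5 or mdx/mTR 6.

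The samples within a group differed in these genes. Among the 24 members called higher, mdx/mTR 5 had the highest mutant level for 17 (70.8%), mdx/mTR 2 for 5, and mdx/mTR 1 and mdx/mTR 3 for 1 each. Over the 3479 genes called higher, mdx/mTR 5 was highest for 56.4%. The coefficient of variation of the 24 members had a median of 19.6% in WT and 27.0% in mdx/mTR, where all genes called higher had 14.2% and 18.03%. In WT, WT 1 had the lowest level for 12 of the 24 (50%), and for 34.9% of all genes called higher.

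The authors' deposited table gives an adjusted p for 46 members, with 25 higher and 7 lower below 0.05. Of its calls, 30 were shared with edgeR in the same direction. The authors' deposited table calls Mmp16 and Mmp27, which were not tested here, and does not call Adam10. For several rises with a wide mutant spread the authors' deposited table gives smaller log2 fold changes. Among these are 2.54 for Timp1, 2.81 for Mmp12, 2.42 for Mmp3, 1.44 for Adam12, 1.52 for Mmp19 and 1.54 for Adamts17.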

How the data were processed

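Messenger RNA of 12 tibialis anterior samples, 6 WT and 6 mdx/mTR, was sequenced, and the sample titles gave the groups and replicate numbers. The authors deposited whole-number counts per gene symbol. A second table deposited by the authors compares the groups: per the file headers, which are those of DESeq2, it holds a mean normalized signal, log2 fold changes with their SE, a test score, and p-values. Per the submitters' processing notes FastQC, STAR, DESeq2 and mm10 were used, and the read counter, annotation and strand handling are not given in the sources used here.

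The deposited counts went unchanged into edgeR 4.0.16 (R 4.3.3). There, filterByExpr kept 13937 genes (99.97% of counts), library sizes were scaled by TMM, and a quasi-likelihood model with a single group term was fitted, with Benjamini-Hochberg adjustment and a threshold of 0.05. Each SE is the absolute log2 fold change over the square root of F, and 95% confidence intervals are 1.96 SE on each side. These intervals use the normal distribution and are somewhat narrower than the F test would give. Figures and tables were made in Python 3.11.15. Library totals were 35136327 to 60330410 counts, and 3 counts correspond to 0.0460 to 0.0837 CPM, a limit that covers counting error only. Replicates were not duplicates of each other (chi-square per degree of freedom 9.14 to 128). The fit was tested on simulated counts for 13937 genes of this comparison, with 50 genes changed at each fold. It recovered 68% of genes changed 1.5-fold, 80% at 2-fold, 94% at 4-fold and 90% at 0.5-fold, with 11 false among 177 calls. In the data 48.3% of tested genes were called, a far larger share than was changed in the simulation. These rates therefore need not hold for the data.

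Positions and promoters came from RefSeq (GRCm38.p6) and transcript lengths, 50-base stretches and exon overlaps from GENCODE M21; 49 of the 79 members had an entry in the promoter table. All tested members could be named; full values went to the TIMPs, the 12 largest rises, the 8 largest falls (7 exist), the 2 smallest adjusted p-values of each other family and a fixed list of 20 genes, and in each pathway list the called gene of largest change in each direction was named. The members and the lists of pathway and marker genes were chosen with earlier results of these data known. Alternatives were DESeq2 1.42.0, limma-voom 3.58.1, other scalings and filters, a stricter threshold of 0.01, a minimum log2 fold change of 0.5, a replicate block and each sample left out in turn.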

Additional observations from a re-analysis of the deposited data

Results flagged for a closer look

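In groups of 6 samples, a sample was singled out when its gap to the nearest other sample took a larger part of the group's range than Dixon's limit at 95% allows. Of 90 groups of values (45 genes in 2 groups), 8 passed this limit, where chance gives about 1 in 20, or 4.5. That rate is for independent, normally distributed values. Here the values were CPM on a linear scale and the genes share samples, so 4.5 is a rough guide only. Of the 8, 5 were in mdx/mTR 5. There Timp1 was at 34.2 CPM (3.35 to 9.19 in the other mutant samples), Mmp19 at 20.1 CPM (4.20 to 7.84), Adam12 at 11.2 CPM (1.31 to 4.74), Mmp9 at 7.09 CPM (0.540 to 1.17) and Adam15 at 52.3 CPM (35.7 to 41.8). The same sample had the highest summed markers of macrophages (278 CPM), satellite cells and myoblasts (319 CPM) and neutrophils (6.77 CPM), and the lowest of mature fibres (100115 CPM). Its neutrophil sum came mainly from S100a8, S100a9 and Cxcr2. Adamts16 was high in mdx/mTR 3, at 0.848 CPM against 0.229 to 0.429 CPM in the others. Adamts9 was low in mdx/mTR 4, at 11.2 CPM against 14.8 to 16.6 CPM. Mmp11 was low in WT 3, at 2.75 CPM against 4.02 to 4.61 CPM.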

How the results depend on the processing

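Of 31 called members, 16 kept their call in all 22 settings, Adamts17 in the 21 that gave it a value (not a mean of at least 1 CPM), and 24 in every fit that left out 1 sample, and Adam9 alone changed sign (0.0062 with library totals alone). The count of higher members was 16 to 25 over all settings and 21 to 25 when 1 sample was left out. The count of lower members was 3 at an adjusted p below 0.01, 3 with library totals alone, 1 with a minimum log2 fold change of 0.5, and 5 to 8 when 1 sample was left out. The difference in the Timp1 share (11.5 percentage points) was 2.97 without length scaling and 7.53 to 13.1 with 1 sample left out, and the MMP to TIMP difference (0.382) was 0.339 to 0.416. The cause was not tested.

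Members near 0 that were not called changed sign. Adam15 was at -0.0047 with DESeq2 and with relative log expression scaling, -0.0062 with limma-voom, -0.0021 with no filter, -0.0065 with the replicate block and -0.09 to 0.04 with 1 sample left out. Mmp15 was at 0.12 with library totals alone, 0.0049 with upper quartile scaling and 0.01 without WT 2, and Mmp13 ran from -0.35 to 0.78 with 1 sample left out. With the replicate block 24 members were higher and 8 lower, and Mmp9 was the change of call. The samples share only a number: same-numbered samples correlated from -0.155 to 0.354 in their deviations, 2 of 6 above 0.1. With a minimum log2 fold change of 0.5, the pathway lists had 3 genes higher and 0 lower (activation), 1 higher (ADAM10 and ADAM17 partners), 1 higher (astacins and enhancers) and 0 higher (ADAMTS-like). Depth limits the 34 untested members, of which 13 had no count.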
